A study of Mus musculus with 9 samples.

Results

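Oligodendrocytes are the glial cells that wrap axons in myelin, and 42 genes that mark their lineage and their myelin were followed here in the hippocampus. The genes were taken by symbol from a deposited table of 57180 genes, and all 42 were present and had enough reads to be tested, out of 17550 genes tested. They comprise 2 genes of the progenitors, 3 transcription factor genes used at every stage, 7 genes of newly formed oligodendrocytes and 30 genes of mature, myelinating oligodendrocytes. Hippocampal poly(A) RNA had been sequenced for 9 male mice aged 6 weeks at collection, 3 in each of 3 groups.

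MAN@SKI II mice belonged to the strain BTBR T+ Itpr3tf/J (BTBR). MAN@SKI II is a nanomicelle aimed at the brain that carries an inhibitor of the sphingosine 1-phosphate (S1P) pathway. These mice received it at 40 mg/kg per day by tail vein for 7 days from 5 weeks of age. The Model group were BTBR mice given vehicle by the same route. The Con group were C57BL/6J mice given vehicle. The vehicle is named as normal saline in one label and as PBS in another. No group of C57BL/6J mice received MAN@SKI II. BTBR is an inbred strain used as a model of autism-like behaviour and is known to lack a corpus callosum, the large myelinated tract that lies above the hippocampus. Differences between BTBR and C57BL/6J mice stand for all that differs between the strains. Libraries are named below by group and replicate number.

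Oligodendrocytes arise from progenitors that carry the receptor PDGFRA, divide and migrate through the tissue. Progenitors that leave the cell cycle pass through a short premyelinating stage, marked by genes such as Gpr17, Enpp6 and Bcas1, before they wrap axons and express the myelin proteins. SOX10 and the OLIG factors act along the whole lineage, and MYRF switches on the myelin genes in mature cells. S1P, the lipid whose pathway the treatment is aimed at, signals to oligodendrocytes through receptors that include S1PR5.

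Promoters are shown for 4 genes that mark the ends of the results below: Mobp, Mag and Mog, which are myelin genes of the mature cell, and Pdgfra, the progenitor receptor gene. Each sequence is the 250 bases before the start of the transcript on its own strand, from RefSeq on build GRCm38.p6, read 5′ to 3′. Capitals mark the letters of 3 motifs searched on both strands, namely ACAAAG or ACAATG for SOX factors, CTGGCAC or CTGGTAC for MYRF, and CAGCTG or CATATG for OLIG factors.
Mobp (chr9:120149492-120149741, plus strand): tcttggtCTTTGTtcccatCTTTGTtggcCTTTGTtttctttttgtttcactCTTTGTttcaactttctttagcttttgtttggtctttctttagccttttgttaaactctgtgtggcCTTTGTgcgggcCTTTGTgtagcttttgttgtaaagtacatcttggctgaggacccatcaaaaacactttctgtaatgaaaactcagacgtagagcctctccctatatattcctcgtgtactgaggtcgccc
Mag (chr7:30914923-30915172, minus strand): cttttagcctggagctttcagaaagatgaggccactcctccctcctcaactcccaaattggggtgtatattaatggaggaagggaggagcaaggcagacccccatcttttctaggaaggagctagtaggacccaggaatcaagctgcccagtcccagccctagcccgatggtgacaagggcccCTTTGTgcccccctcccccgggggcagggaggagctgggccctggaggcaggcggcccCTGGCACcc
Mog (chr17:37023399-37023648, minus strand): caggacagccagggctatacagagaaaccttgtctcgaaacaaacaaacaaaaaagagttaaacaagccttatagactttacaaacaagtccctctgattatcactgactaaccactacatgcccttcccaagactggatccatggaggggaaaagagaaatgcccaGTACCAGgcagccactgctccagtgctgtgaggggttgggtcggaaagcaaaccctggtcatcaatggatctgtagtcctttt
Pdgfra (chr5:75152001-75152250, plus strand): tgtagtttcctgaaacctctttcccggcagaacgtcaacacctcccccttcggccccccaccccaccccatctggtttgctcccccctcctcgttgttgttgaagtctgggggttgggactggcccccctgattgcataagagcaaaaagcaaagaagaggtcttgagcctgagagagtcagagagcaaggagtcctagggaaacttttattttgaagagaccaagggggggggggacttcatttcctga

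The Mobp promoter held 6 SOX letter matches, the first of them 243 bases before the start. The Mag promoter shown held 1 SOX match and 1 MYRF match; of the 3 RefSeq windows of Mag, a second one overlaps it and holds the same letters, and the other, at a start further into the gene, held none of the 3 motifs. The Mog promoter held 1 MYRF match, and that of Pdgfra held none. RefSeq windows of 300 bases, which reach 50 bases past the start, were matched by symbol for 29 of the 42 genes, with 40 windows in all. SOX letters stood in 17 of these 40 windows (42.5%), against 28.6% of all 32851 windows. MYRF letters stood in 7 of 40 windows (17.5%), against 7.10% of all windows, and all 7 were among the 31 windows of myelinating genes. OLIG letters stood in 8 of 40 windows (20%), against 19.8% of all windows. No match of one motif overlapped a match of another in these windows. Several of the windows belong to the same gene and share bases, and a match of letters is a description of the sequence only.

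Depth was similar across the libraries, while composition differed between the strains. Totals ran from 14751054 to 18827093 counts, and 3 counts, the limit that a count of 0 allows, equalled 0.159 to 0.203 CPM, for counting error only. CPM is a gene's share of the counts of its library, scaled to the same total in every library. The first principal component, with 42.7% of the variance, ran from 43.4 to 49.8 in the Con libraries and from -34.9 to -16.1 in the BTBR libraries. Mitochondrial transcripts took 9.63% of counts in MAN@SKI II 2 and 6.26% to 7.15% in the other 8 libraries. MAN@SKI II 2 also stood apart on the second principal component. The 42 genes together took 0.306% to 0.377% of all counts in the MAN@SKI II mice, 0.361% to 0.417% in the Model mice and 0.535% to 0.625% in the Con mice. Of the 42 genes, 22 share bases with another gene that had counts, and reads in such stretches may have been split between genes. Levels are given as CPM scaled by library factors. Calls rest on edgeR's quasi-likelihood test at a threshold of 0.05 on the p adjusted by Benjamini-Hochberg over the whole set of tested genes. Fold changes are log2 values with their standard errors, tested with 3 mice per group.

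In Model mice myelin genes were lower than in Con mice, and no progenitor gene was called. Of the 42 genes 16 fell and none rose in Model against Con, and all 16 were myelinating genes. Among all genes tested, 7.64% were called in this comparison, 4.52% as lower and 3.11% as higher. The median log2 fold change was -0.37 over the 42 genes and 0.00 over all genes tested. An unadjusted p under 0.05 was found for 27 of the 42 genes, against 19.6% of all genes. In 25 of the 42 genes every Model library lay below every Con library, as did 16.2% of all genes.

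Myelin genes were lower in MAN@SKI II mice than in Con mice as well. In MAN@SKI II against Con, 21 of the 42 genes fell and none rose, where 8.13% of all genes were called, 4.7% as lower and 3.43% as higher. The median was -0.43 over the 42 genes and 0.00 over all genes. An unadjusted p under 0.05 was found for 30 of the 42 genes, against 21.6% of all genes. In 29 of the 42 genes every MAN@SKI II library lay below every Con library, as did 14.4% of all genes. Both comparisons use the same 3 Con libraries, so their calls are not independent of each other.

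In MAN@SKI II against Model, edgeR called 0 of the 42 genes and 0% of all genes tested. At an unadjusted p under 0.05 it listed 6 of the 42 genes and 4.82% of all genes. DESeq2 and limma-voom also called 0 of the 42 genes, and DESeq2 called 17 of all genes tested.

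**Figure D1:**
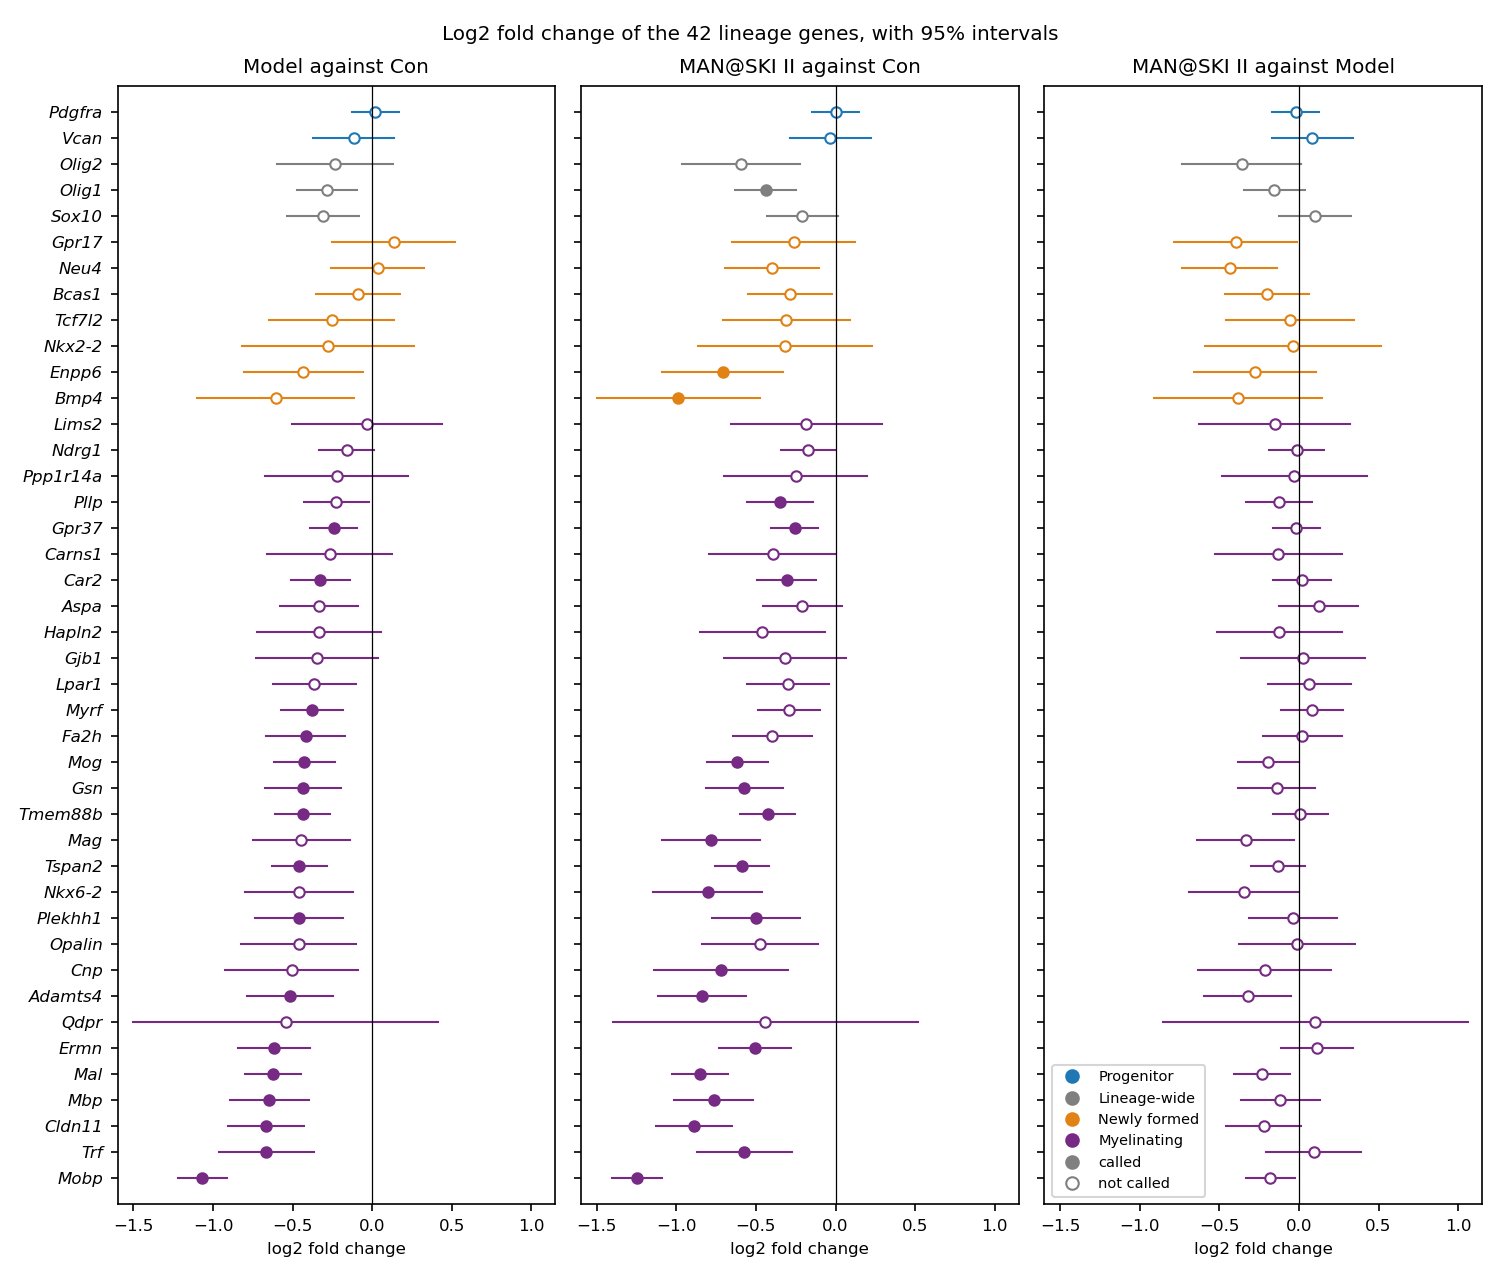
Log2 fold change (x axis) of the 42 genes (rows, by lineage stage) in 3 comparisons, with 95% intervals as bars. Filled points passed an adjusted p of 0.05, and no point is filled in MAN@SKI II against Model. In both comparisons with Con the progenitor genes lie between -0.12 and 0.02 and Mobp is lowest, at -1.07 in Model mice and -1.25 in MAN@SKI II mice.

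The progenitor stage was represented by 2 genes, and neither was called in any comparison. Pdgfra, which encodes the receptor for platelet-derived growth factor A (chr5:75312953-75358876, GRCm39), was at 64.3, 68.5 and 68.4 CPM in the MAN@SKI II mice, 67.2, 65.8 and 70.9 CPM in the Model mice and 63.9, 67.4 and 69.7 CPM in the Con mice. The 3 groups overlapped throughout. Its log2 fold change was 0.02 ± 0.07 in Model against Con, with a 95% interval of -0.13 to 0.17, and 0.00 ± 0.07 in MAN@SKI II against Con, with an interval of -0.15 to 0.15. Vcan encodes the matrix proteoglycan versican. It was at 20.4, 27.8 and 21.4 CPM in the MAN@SKI II mice and 21.3, 22.1 and 22.2 CPM in the Model mice. In the Con mice Vcan was at 24.1, 24.6 and 22.4 CPM. Every Model library lay below every Con library, as in 16.2% of all genes, while the MAN@SKI II and Con groups overlapped. Its fold changes were -0.12 ± 0.12 in Model against Con and -0.03 ± 0.12 in MAN@SKI II against Con.

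A further list of 10 progenitor genes outside the 42, among them Cspg4, gave 0 calls in each of the 3 comparisons. At an unadjusted p under 0.05, edgeR listed 0 of the 10 in Model against Con, 2 in MAN@SKI II against Con and 0 in MAN@SKI II against Model. The shares over all genes were 19.6%, 21.6% and 4.82%. The median log2 fold change of this list was 0.04 in Model against Con, with a range of -0.24 to 0.37. In MAN@SKI II against Con the median was 0.01, with a range of -0.28 to 0.63. For 3 of the 10 genes every Model library lay below every Con library, and for 1 every Model library lay above. Among all genes these shares were 16.2% and 16%.

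The 3 transcription factor genes of the whole lineage had medians of -0.28 in Model against Con and -0.44 in MAN@SKI II against Con, and 1 of them, Olig1, was called. Olig1, a helix-loop-helix factor gene, was at 102, 85.4 and 110.4 CPM in the MAN@SKI II mice, 107, 117 and 108 CPM in the Model mice and 136, 134 and 135 CPM in the Con mice. Every library of both BTBR groups lay below every Con library. Olig1 fell in MAN@SKI II against Con, at -0.44 ± 0.09 (adjusted p = 0.0100), and was at -0.28 ± 0.09 in Model against Con, which did not pass (adjusted p = 0.0795).

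Olig2, the helix-loop-helix factor gene that specifies the lineage, was at 26.8, 19.4 and 22.4 CPM in the MAN@SKI II mice, 25.2, 37.7 and 25.3 CPM in the Model mice and 37.4, 33.8 and 32.6 CPM in the Con mice. Model 2 lay above all Con libraries, while Model 1 and Model 3 lay below all of them. The fold change was -0.59 ± 0.17 in MAN@SKI II against Con (adjusted p = 0.0573) and -0.23 ± 0.17 in Model against Con (adjusted p = 0.518). The MAN@SKI II value passed the test without Model 2, at -0.59 with an adjusted p of 0.0162, and without MAN@SKI II 1, at -0.72 with an adjusted p of 0.0444.

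Sox10, the gene of the HMG-box factor that acts from progenitor to mature cell, was at 43.4, 44.3 and 47.2 CPM in the MAN@SKI II mice, 40.9, 45.9 and 39.2 CPM in the Model mice and 54.6, 44.3 and 56.9 CPM in the Con mice. The groups overlapped, with Con 2 among the BTBR libraries. The fold change of -0.31 ± 0.10 in Model against Con did not pass (adjusted p = 0.107), and passed at -0.41 without Con 2 (adjusted p = 0.0342). For MAN@SKI II against Con it was -0.21 ± 0.10 (adjusted p = 0.271).

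**Figure D2:**
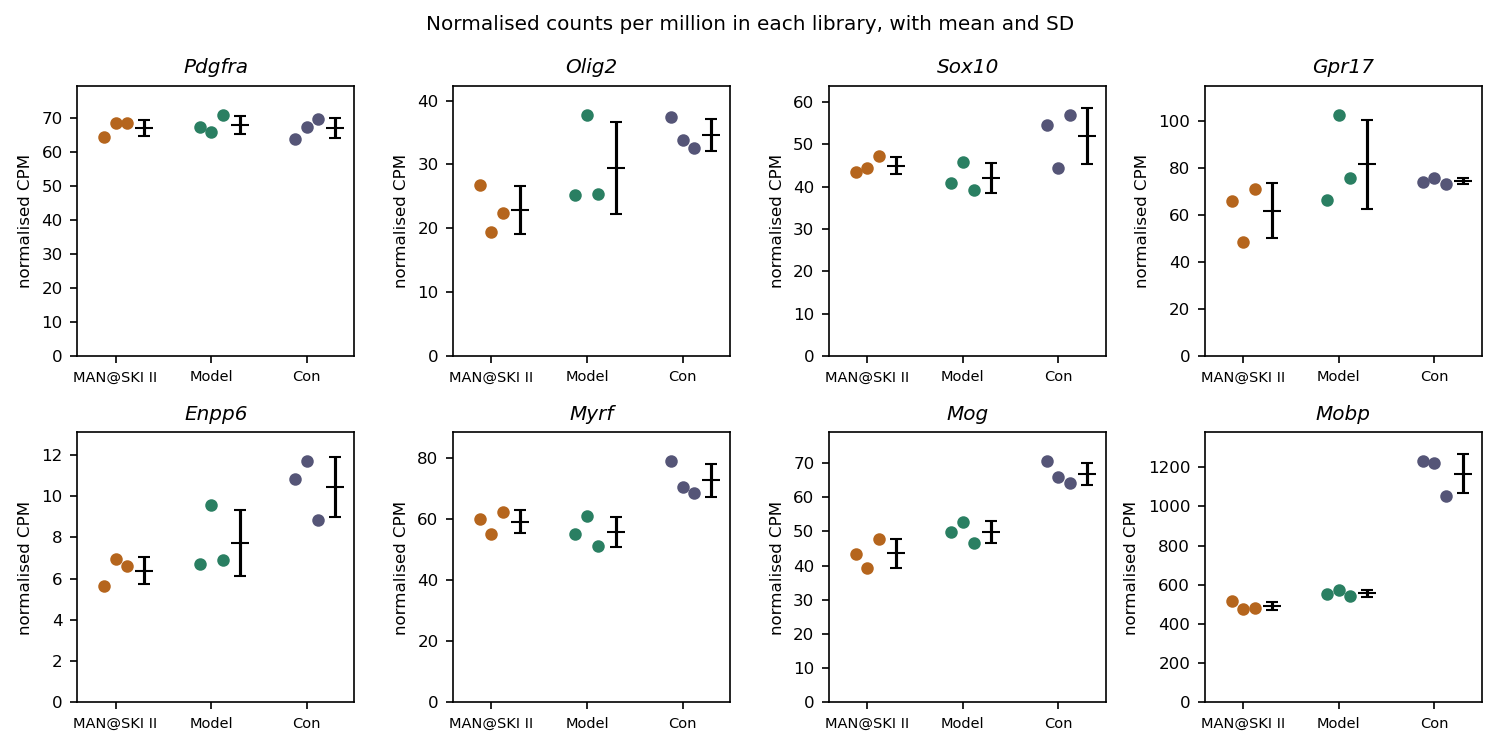
Normalised CPM (y axis, from 0) of 8 genes ordered by lineage stage, 1 point per library, with the mean and SD of each group of 3 mice as bars. Pdgfra sits between 63.9 and 70.9 CPM in all groups. Model 2 is the highest Model library for every gene shown but Pdgfra. For Mobp both BTBR groups lie under all Con libraries.

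Newly formed oligodendrocyte genes showed no call in Model against Con (0 of 7, with 2 at an unadjusted p under 0.05 in edgeR) and 2 falls in MAN@SKI II against Con. Over all genes, 19.6% had such an unadjusted p in Model against Con, and 4.7% were called lower in MAN@SKI II against Con. The median log2 fold change of the 7 genes was -0.25 in Model against Con and -0.32 in MAN@SKI II against Con. The 2 that fell were Bmp4 and Enpp6.

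Bmp4, the gene of a secreted ligand that holds back oligodendrocyte differentiation, was at 1.61, 1.34 and 2.17 CPM in the MAN@SKI II mice, 1.86, 2.73 and 2.12 CPM in the Model mice and 3.32, 3.65 and 3.25 CPM in the Con mice. All BTBR libraries lay below all Con libraries. It fell by 0.99 ± 0.23 on the log2 scale in MAN@SKI II against Con (adjusted p = 0.0240), and was at -0.61 ± 0.22 in Model against Con (adjusted p = 0.147). These are low counts, and the MAN@SKI II call was lost without MAN@SKI II 1 (adjusted p = 0.0789), MAN@SKI II 2 (0.0544), Con 1 (0.0649), Con 2 (0.0859) or Con 3 (0.0601), at log2 values of -0.85 to -1.02.

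Enpp6, the gene of a choline phosphodiesterase that marks cells about to myelinate, was at 5.64, 6.93 and 6.58 CPM in the MAN@SKI II mice, 6.71, 9.57 and 6.91 CPM in the Model mice and 10.8, 11.7 and 8.85 CPM in the Con mice. The MAN@SKI II and Con groups did not overlap, whereas Model 2 lay above Con 3. Enpp6 fell by 0.71 ± 0.17 in MAN@SKI II against Con (adjusted p = 0.0279) and was at -0.43 ± 0.17 in Model against Con (adjusted p = 0.176). The MAN@SKI II call was lost without MAN@SKI II 1 (-0.63, adjusted p = 0.0992), MAN@SKI II 3 (-0.74, 0.0520), Con 1 (-0.69, 0.0935) or Con 2 (-0.62, 0.112).

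Gpr17, which encodes a receptor of premyelinating cells that acts as a brake on maturation, was at 65.9, 48.7 and 71.2 CPM in the MAN@SKI II mice, 66.3, 103 and 75.9 CPM in the Model mice and 73.9, 75.8 and 73.3 CPM in the Con mice. Model 2 was again the highest library and MAN@SKI II 2 the lowest. The fold change was 0.13 ± 0.17 in Model against Con, with a 95% interval of -0.25 to 0.52, and -0.06 without Model 2. In MAN@SKI II against Con it was -0.26 ± 0.17, with an interval of -0.65 to 0.12. Gpr17 lies wholly inside Lims2 on the opposite strand (6640 shared bases), so without strand their reads cannot be told apart.

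The other 4 genes of this stage stayed uncalled in both comparisons with Con. Bcas1, a marker of early myelinating cells, was at 103 to 126 CPM in the MAN@SKI II mice, 113 to 159 CPM in the Model mice and 137 to 141 CPM in the Con mice. Neu4, a sialidase gene, was at 9.05 to 13.4 CPM in the MAN@SKI II mice, 14.4 to 15.8 CPM in the Model mice and 14.0 to 15.6 CPM in the Con mice. Nkx2-2 and Tcf7l2, transcription factor genes of the step into differentiation, ran from 2.82 to 5.16 CPM and from 3.71 to 5.60 CPM over all libraries, with overlapping groups. A further list of 10 newly formed oligodendrocyte genes had 1 fall, Cnksr3 in MAN@SKI II against Con (-0.76 ± 0.18, adjusted p = 0.0235), where 4.7% of all genes were called lower. The list had no fall in Model against Con, where 2 of the 10 had an unadjusted p under 0.05 in edgeR, against 19.6% of all genes.

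**Figure D3:**
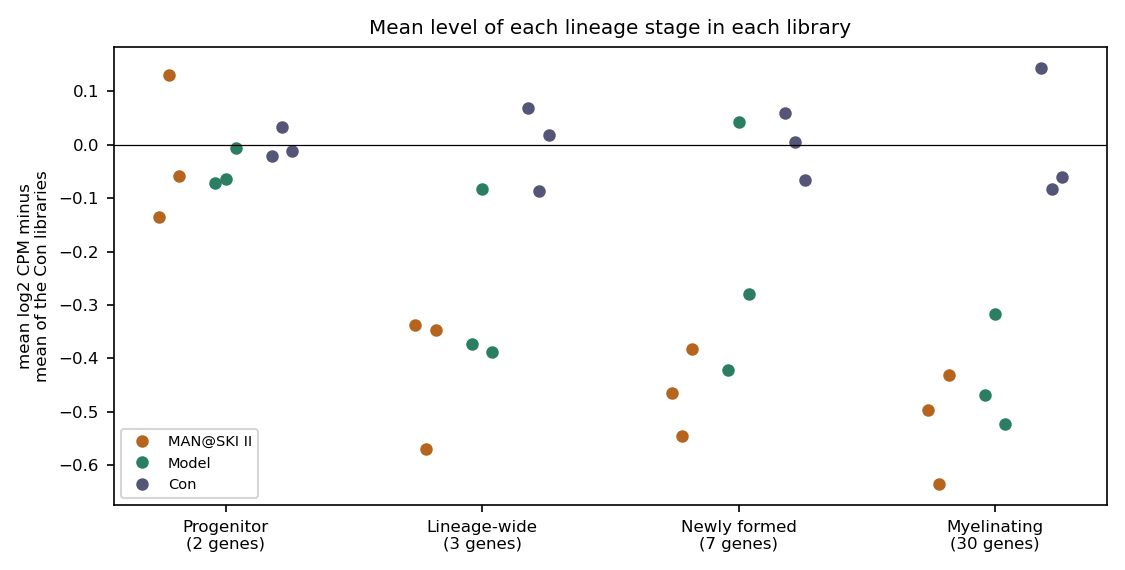
Mean log2 CPM of the genes of each lineage stage in each library (points), minus the mean of the Con libraries (y axis, log2 units). Progenitor genes lie between -0.14 and 0.13 in the BTBR libraries, and myelinating genes lie between -0.64 and -0.32 in them with no overlap with Con.

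Every one of the 30 myelinating genes had a fold change below 0 in both comparisons with Con, but with the choroid plexus markers described below as a covariate 6 of the 30 lay above 0 in each. In Model against Con 16 of 30 fell, with a median log2 fold change of -0.43 and a range of -1.07 to -0.03. For MAN@SKI II against Con 18 of 30 fell, with a median of -0.47 and a range of -1.25 to -0.17. The summed level of the 30 genes was 3097, 2765 and 3272 CPM in the MAN@SKI II mice, 3126, 3584 and 3187 CPM in the Model mice and 5592, 4979.8 and 4807 CPM in the Con mice. For comparison, the 2 progenitor genes summed to 84.8 to 96.2 CPM in the MAN@SKI II mice, 87.9 to 93.1 CPM in the Model mice and 88.1 to 92.1 CPM in the Con mice. The difference between stages was not tested. In bulk RNA, fewer oligodendrocytes and less RNA per oligodendrocyte cannot be told apart.

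Of the 13 structural genes of the myelin membrane, 7 fell in Model against Con (median -0.46) and 10 fell in MAN@SKI II against Con (median -0.62). Mobp, which encodes a small basic protein of compact central myelin (chr9:119978773-120010550, GRCm39), was at 515, 477 and 481 CPM in the MAN@SKI II mice, 553, 575 and 541 CPM in the Model mice and 1229, 1219 and 1050.5 CPM in the Con mice. Both BTBR groups lay far below Con with no overlap. Mobp was 2.10-fold lower in Model than in Con mice (-1.07 ± 0.07, adjusted p = 5.3e-06) and 2.38-fold lower in MAN@SKI II than in Con mice (-1.25 ± 0.07, adjusted p = 1.4e-06). Per length, Mobp averaged 60.2 ± 3.68 FPKM in the MAN@SKI II mice, 69.2 ± 1.88 FPKM in the Model mice and 145 ± 13.5 FPKM in the Con mice (SD, n = 3 each). By mean FPKM it was the most abundant of the 42 genes in Con mice. In the BTBR groups Mal had a higher mean, at 61.8 ± 3.93 FPKM in the MAN@SKI II mice and 73.6 ± 1.08 FPKM in the Model mice.

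Mbp, whose protein joins the inner faces of the myelin membrane (chr18:82493271-82603762, GRCm39), was at 819, 709.8 and 902 CPM in the MAN@SKI II mice, 794, 956 and 888 CPM in the Model mice and 1575, 1328 and 1231 CPM in the Con mice. No BTBR library reached the lowest Con library. Mbp fell by 0.65 ± 0.11 in Model against Con (adjusted p = 0.0053) and by 0.77 ± 0.11 in MAN@SKI II against Con (adjusted p = 0.0019). Cldn11, the gene of the tight junction protein between myelin wraps, was at 81.5, 80.8 and 102 CPM in the MAN@SKI II mice, 93.3, 111 and 104 CPM in the Model mice and 182, 156 and 151 CPM in the Con mice. It fell by 0.67 ± 0.11 in Model against Con and by 0.89 ± 0.11 in MAN@SKI II against Con (adjusted p = 0.0030 and 0.00047).

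Mal, the gene of a proteolipid that sorts myelin lipids and proteins, was at 193, 189.5 and 205 CPM in the MAN@SKI II mice, 228, 235 and 228 CPM in the Model mice and 389, 365 and 309.9 CPM in the Con mice. It fell by 0.62 ± 0.08 in Model against Con (adjusted p = 0.00067) and by 0.85 ± 0.08 in MAN@SKI II against Con (adjusted p = 7.1e-05). Ermn, the gene of a cytoskeletal protein of late myelinating cells, was at 47.6, 53.7 and 42.8 CPM in the MAN@SKI II mice, 42.3, 50.0 and 41.0 CPM in the Model mice and 71.1, 64.7 and 68.6 CPM in the Con mice. The falls were 0.62 ± 0.10 in Model against Con and 0.51 ± 0.10 in MAN@SKI II against Con (adjusted p = 0.0033 and 0.0109). For both genes the BTBR and Con libraries did not overlap.

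Mog, the gene of an outer surface protein of the myelin sheath (chr17:37321635-37334290, GRCm39), was at 43.4, 39.4 and 47.7 CPM in the MAN@SKI II mice, 49.8, 52.8 and 46.6 CPM in the Model mice and 70.4, 65.9 and 64.1 CPM in the Con mice. It fell by 0.43 ± 0.09 in Model against Con (adjusted p = 0.0117) and by 0.62 ± 0.09 in MAN@SKI II against Con (adjusted p = 0.0012). The Model call was lost without Model 3 (-0.38, adjusted p = 0.0603) or Con 1 (-0.39, adjusted p = 0.0603). Mag, the gene of the adhesion protein of the membrane that faces the axon, was at 106, 73.5 and 111 CPM in the MAN@SKI II mice, 122, 131 and 112 CPM in the Model mice and 180.1, 155 and 163 CPM in the Con mice. It fell by 0.78 ± 0.14 in MAN@SKI II against Con (adjusted p = 0.0068) and was at -0.45 ± 0.14 in Model against Con (adjusted p = 0.0882), although neither BTBR group overlapped Con.

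The remaining 6 membrane genes were Cnp, Tspan2, Opalin, Pllp, Gjb1 and Hapln2. Tspan2, a tetraspanin gene, fell in both comparisons, at -0.46 ± 0.08 in Model against Con and -0.59 ± 0.08 in MAN@SKI II against Con. Cnp, whose enzyme keeps cytoplasmic channels in myelin open, and Pllp, a proteolipid gene, fell in MAN@SKI II against Con (-0.72 ± 0.18 and -0.35 ± 0.09), and stood at -0.51 ± 0.18 and -0.23 ± 0.09 in Model against Con, where neither passed. Opalin, the connexin gene Gjb1 and the nodal matrix gene Hapln2 were not called, at -0.46, -0.34 and -0.34 in Model against Con. The values of these 3 genes in MAN@SKI II against Con were -0.47, -0.32 and -0.46. Reads of Cnp and of its antisense neighbour Dnajc7, and those of Pllp and its near-identical neighbour Gm45767, may have been exchanged in counting.

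Myrf, the gene of the factor that drives the myelin programme, was at 59.9, 55.2 and 62.4 CPM in the MAN@SKI II mice, 55.1, 61.1 and 51.3 CPM in the Model mice and 78.9, 70.6 and 68.4 CPM in the Con mice. No BTBR library reached the lowest Con library. It fell by 0.38 ± 0.09 in Model against Con (adjusted p = 0.0233) and was at -0.30 ± 0.09 in MAN@SKI II against Con (adjusted p = 0.0686). The Model call was lost without Model 1 (-0.37, adjusted p = 0.0864), Model 3 (-0.32, 0.105), Con 1 (-0.32, 0.110) or Con 2 (-0.40, 0.0598). Nkx6-2, the other transcription factor gene of mature cells, was at 8.18, 6.51 and 9.65 CPM in the MAN@SKI II mice, 9.47, 10.9 and 10.6 CPM in the Model mice and 16.5, 12.7 and 13.5 CPM in the Con mice. It fell by 0.80 ± 0.16 in MAN@SKI II against Con (adjusted p = 0.0092) and was at -0.46 ± 0.15 in Model against Con (adjusted p = 0.108). Nkx6-2 shares 277 bases with the antisense gene Inpp5a.

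Of the 6 genes of oligodendrocyte metabolism, 3 fell in Model against Con (Trf, Fa2h and Car2) and 2 fell in MAN@SKI II against Con (Trf and Car2). Trf, the gene of the iron carrier transferrin, was at 107, 98.7 and 134 CPM in the MAN@SKI II mice, 105, 116 and 97.7 CPM in the Model mice and 199, 149.9 and 157 CPM in the Con mice. Con 1 was the highest library, and the BTBR and Con libraries did not overlap. Trf fell by 0.67 ± 0.13 in Model against Con (adjusted p = 0.0131) and by 0.57 ± 0.13 in MAN@SKI II against Con (adjusted p = 0.0266). The Model call was lost without Model 1 (-0.66, adjusted p = 0.0540) or Model 3 (-0.61, adjusted p = 0.0591). The fatty acid hydroxylase gene Fa2h was at -0.42 ± 0.11 in Model against Con and -0.40 ± 0.11 in MAN@SKI II against Con, while the carbonic anhydrase gene Car2 was at -0.33 ± 0.08 in Model against Con and -0.31 ± 0.08 in MAN@SKI II against Con. Aspa, which cleaves N-acetylaspartate, Carns1, which makes carnosine, and Qdpr, which recycles a biopterin cofactor, were not called, at -0.33, -0.27 and -0.54 in Model against Con. Their values in MAN@SKI II against Con were -0.21, -0.40 and -0.44.

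Among the 9 signalling and cytoskeleton genes, 5 fell in each comparison with Con, and these were Adamts4, Plekhh1, Gsn, Tmem88b and Gpr37 both times. Adamts4, the gene of a matrix protease made by mature oligodendrocytes, was at 21.2, 17.5 and 21.2 CPM in the MAN@SKI II mice, 25.4, 29.0 and 20.7 CPM in the Model mice and 36.6, 35.0 and 35.7 CPM in the Con mice. It fell by 0.52 ± 0.12 in Model against Con (adjusted p = 0.0268) and by 0.84 ± 0.12 in MAN@SKI II against Con (adjusted p = 0.0017). The Model call was lost without Model 1 (adjusted p = 0.0829), Model 3 (0.0914), Con 1 (0.0945), Con 2 (0.0728) or Con 3 (0.0799), at log2 values of -0.40 to -0.53.

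Plekhh1, a gene for a pleckstrin homology protein, was at 31.6, 34.1 and 36.7 CPM in the MAN@SKI II mice, 34.5, 38.2 and 32.5 CPM in the Model mice and 57.01, 39.8 and 48.0 CPM in the Con mice. Con 2 was close to Model 2, and the groups did not overlap. It fell by 0.46 ± 0.12 in Model against Con (adjusted p = 0.0475) and by 0.50 ± 0.13 in MAN@SKI II against Con (adjusted p = 0.0327). The Model call was lost without MAN@SKI II 1 (-0.46, adjusted p = 0.0588), Model 1 (-0.45, 0.142), Model 2 (-0.53, 0.0671), Model 3 (-0.41, 0.167), Con 1 (-0.33, 0.190) or Con 3 (-0.46, 0.119). The actin-severing gene Gsn was at -0.43 ± 0.11 in Model against Con, Tmem88b at -0.44 ± 0.08 and the receptor gene Gpr37 at -0.24 ± 0.07. In MAN@SKI II against Con these values were -0.57 ± 0.11 for Gsn, -0.43 ± 0.08 for Tmem88b and -0.26 ± 0.07 for Gpr37. Ndrg1, the phosphatase inhibitor gene Ppp1r14a, the lysophosphatidic acid receptor gene Lpar1 and the focal adhesion gene Lims2 were not called in either comparison, with values of -0.36 to -0.03 in Model against Con and -0.30 to -0.17 in MAN@SKI II against Con.

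A list of 25 further myelinating genes outside the 42 was read in the same way, with 24 of them tested. Fold changes of 3 of the 24 lay above 0 in each comparison with Con. They ranged from -1.05 to 0.43 in Model against Con and from -1.03 to 0.32 in MAN@SKI II against Con. In Model against Con 8 of the 24 were called as falls and none as rises (median -0.29), where 4.52% of all genes were called lower. In MAN@SKI II against Con 10 of the 24 were called as falls and none as rises (median -0.38), where 4.7% of all genes were called lower. One of these falls was that of Il33, the gene of a nuclear cytokine of the glia, in Model against Con (-1.05 ± 0.20, adjusted p = 0.0107). The S1P receptor gene S1pr5, named for its link to the treatment and after its values were seen, was at 14.0, 12.9 and 15.5 CPM in the MAN@SKI II mice, 16.3, 15.0 and 16.4 CPM in the Model mice and 18.6, 19.4 and 18.0 CPM in the Con mice. It fell by 0.40 ± 0.10 in MAN@SKI II against Con (adjusted p = 0.0317) and was at -0.23 ± 0.10 in Model against Con (adjusted p = 0.231).

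The number of calls in the comparisons with Con depended on single libraries. In Model against Con, 16 calls became 8 without Model 1, 7 without Model 3, 8 without Con 1 and 10 without Con 3. The calls of 7 genes, namely Cldn11, Ermn, Mal, Mbp, Mobp, Tmem88b and Tspan2, passed in all 9 fits that left out 1 library. Among the other genes, the call in Model against Con passed in 4 of the 9 fits for Gsn and for Car2, in 2 for Fa2h and in 1 for Gpr37. The 21 calls in MAN@SKI II against Con became 12 without Con 1 and 17 without MAN@SKI II 2, and 12 of the 21 passed in all 9 such fits. That call passed in 8 of the 9 fits for Ermn, 6 for Trf, 4 for Plekhh1, 3 for Car2 and for Gpr37, 2 for Pllp and 1 for Cnp.

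Markers of the choroid plexus, the epithelium that makes cerebrospinal fluid in the ventricle beside the hippocampus, moved with the same groups. The 11 markers summed to 50.5, 57.8 and 362 CPM in the MAN@SKI II mice, 44.1, 308 and 45.0 CPM in the Model mice and 2506, 1386 and 927 CPM in the Con mice. All 11 were lower in Model than in Con mice by fold change and 5 of the 11 were called, with a median log2 fold change of -3.16. Over all genes, 4.52% were called lower in that comparison. In each group the library with the most choroid plexus marker RNA also had the highest sum of the 30 myelinating genes, namely MAN@SKI II 3, Model 2 and Con 1. With the mean log2 level of the 11 markers as a covariate, which ran from 0.54 to 2.20 in the MAN@SKI II mice, 0.23 to 2.15 in the Model mice and 3.52 to 5.00 in the Con mice, Mobp was the only 1 of the 42 genes called in either comparison. Mobp was then at -0.97 in Model against Con (adjusted p = 0.0142) and -1.15 in MAN@SKI II against Con (adjusted p = 0.0033). Of the 30 myelinating genes, 6 then lay above 0 in Model against Con (Gjb1, Lims2, Ndrg1, Nkx6-2, Ppp1r14a and Qdpr, at 0.03 to 0.75) and 6 in MAN@SKI II against Con (Gjb1, Lims2, Lpar1, Ndrg1, Ppp1r14a and Qdpr, at 0.0045 to 0.56), none of them called. The median of the 30 myelinating genes was then -0.11 in Model against Con and -0.30 in MAN@SKI II against Con. The covariate did not overlap between BTBR and Con libraries, so choroid plexus marker RNA and strain cannot be told apart in these comparisons.

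**Figure D4:**
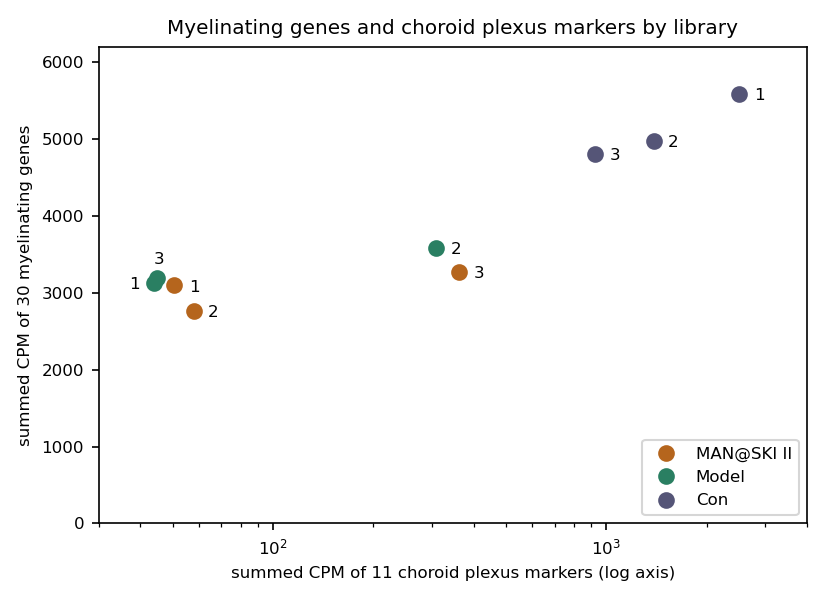
Summed CPM of the 30 myelinating genes (y axis, from 0) against summed CPM of 11 choroid plexus markers (x axis, log scale) in each of the 9 libraries, numbered by replicate within each group. The 3 Con libraries lie at the upper right and the 6 BTBR libraries at 44.1 to 362 CPM of the markers and 2765 to 3584 CPM of the myelinating genes.

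Markers of other cells were read in the same way. Over all genes, 4.52% were called lower in Model against Con and 4.7% in MAN@SKI II against Con. An unadjusted p under 0.05 in edgeR was found for 19.6% of all genes in Model against Con and 21.6% in MAN@SKI II against Con. The 9 astrocyte markers summed to 3988 to 4341 CPM in the MAN@SKI II mice, 4084 to 4258 CPM in the Model mice and 4535 to 4605 CPM in the Con mice, and 3 of the 9 were called lower in each comparison with Con. The 10 microglia markers summed to 296 to 311 CPM in the MAN@SKI II mice, 289.8 to 294 CPM in the Model mice and 339 to 373 CPM in the Con mice, with 2 of 10 called lower in Model against Con and 3 of 10 in MAN@SKI II against Con. The 6 neuron markers gave 0 calls in any comparison with edgeR (0, 3 and 0 at an unadjusted p under 0.05 in Model against Con, MAN@SKI II against Con and MAN@SKI II against Model), and summed to 5552 to 6228 CPM in the MAN@SKI II mice, 5395 to 5875 CPM in the Model mice and 5312 to 5668 CPM in the Con mice. The 5 thalamus markers gave 0 calls as well, with 3 at an unadjusted p in Model against Con. The ependyma markers, of which 5 were tested, gave 0 calls and 4 at an unadjusted p in Model against Con, and summed to 12.3 to 18.9 CPM in the MAN@SKI II mice, 9.0 to 17.0 CPM in the Model mice and 17.5 to 26.6 CPM in the Con mice. Of the 8 endothelial, 5 mural and 6 fibroblast markers, 1 mural marker was called lower in each comparison with Con and 1 endothelial marker in MAN@SKI II against Con. The 4 Schwann cell markers summed to 0.849 to 2.34 CPM over all libraries. The 8 endothelial markers summed to 206 to 236 CPM in the MAN@SKI II mice, 231 to 243 CPM in the Model mice and 250 to 262 CPM in the Con mice. In Model against Con the median log2 fold change was -0.06 for the astrocyte markers, with 6 below 0 and 3 above. It was -0.18 for the microglia markers (7 below, 3 above) and -0.11 for the endothelial markers (5 below, 3 above). Lower sums of these marker lists go with the lower myelin genes here, and their part in the result was not tested.

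Treatment was compared within the BTBR strain by setting MAN@SKI II mice against Model mice. None of the 42 genes passed, and the smallest adjusted p was 0.914. The median log2 fold change was -0.12 over the 42 genes and 0.00 over all genes, with 30 genes below 0 and 12 above. In 4 of the 42 genes every MAN@SKI II library lay below every Model library, as did 4.8% of all genes, and in 0 of the 42 did every MAN@SKI II library lie above, as in 4.63% of all genes.

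By stage, all 7 newly formed oligodendrocyte genes had values below 0 in MAN@SKI II against Model, with a median of -0.28, and without Model 2 the median was -0.10 with 6 of 7 below 0. The medians were 0.03 for the 2 progenitor genes, -0.16 for the 3 lineage-wide genes and -0.08 for the 30 myelinating genes. Neu4 had the smallest unadjusted p of the 42 genes, at 13.4, 9.05 and 10.99 CPM in the MAN@SKI II mice and 14.4, 15.1 and 15.8 CPM in the Model mice. The groups did not overlap, and the log2 fold change was -0.44 ± 0.13 with a 95% interval of -0.73 to -0.14 (adjusted p = 0.914). Gpr17 was at -0.40 ± 0.17, with an interval of -0.78 to -0.01, and here Model 2 and MAN@SKI II 2 were the libraries farthest apart. Without MAN@SKI II 2 the values were -0.31 for Neu4 and -0.25 for Gpr17, each with an adjusted p of 0.996.

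Among the myelinating genes, Mal had an interval of -0.41 to -0.06, Mobp -0.33 to -0.03, Mag -0.64 to -0.03 and Adamts4 -0.60 to -0.05 on the log2 scale in MAN@SKI II against Model, each with an adjusted p of 0.914. Mal, Mobp and Mag were lower in every MAN@SKI II library than in every Model library, while Adamts4 overlapped. For Mag, MAN@SKI II 2 was lowest at 73.5 CPM, with MAN@SKI II 1 and 3 at 106 and 111 CPM and Model 3 at 112 CPM. Over all settings tried, the value of Mag ran from -0.44 to -0.17. Mog was at -0.19 ± 0.09, Myrf at 0.08 ± 0.09, Olig2 at -0.36 ± 0.17, Enpp6 at -0.28 ± 0.17 and Sox10 at 0.10 ± 0.10, all with overlapping groups. Mbp had an interval of -0.37 to 0.13 and Pdgfra one of -0.17 to 0.13. These intervals are not adjusted for the number of genes, and none of the differences passed after adjustment with 3 mice per group.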

How the data were processed

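Poly(A) RNA was enriched with oligo-dT beads from total hippocampal RNA of 9 mice, per the labels' protocols. The values tested are counts by gene, deposited by the authors in columns that the file headers name as counts. The values are whole numbers, and the headers do not say whether they were scaled. The authors also deposited FPKM values, which equal count over gene length and library total within a relative tolerance of 0.001 in 13554 of 13554 genes checked. FPKM is used here only to compare levels between genes. The submitters' processing notes name HISAT2 2.0.4, StringTie 1.3.3b, edgeR 3.2.0, Bowtie2 and GRCm39; which tool did what, and whether counting used strand, is not given in the sources used here. Gene coordinates are those of the deposited table (GRCm39). Samples were grouped by their titles, which call the replicates biological.

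The 42 genes, the other lists and the rule for the genes described were chosen with earlier results of these data known. The rule took Pdgfra, Olig2, Sox10, Gpr17, Enpp6, Myrf, Mog and Mobp throughout, the 8 called genes with the largest falls in each comparison with Con, and the 6 with the smallest unadjusted p in MAN@SKI II against Model; other genes are given by stage, and genes of other lists were named up to 3 per list. Some further members were given values to account for every gene.

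All genes of the table were tested with edgeR 4.0.16 in R 4.3.3: filterByExpr (17550 of 57180 genes kept), TMM factors (0.960 to 1.01), a robust quasi-likelihood model over all 9 libraries with group as the only term (common dispersion 0.0196), two-sided F tests and Benjamini-Hochberg adjustment over all genes tested. Every adjusted p comes from this model unless another tool is named. Standard errors follow from the F statistic, and intervals are 95%. Log2 CPM of stages and markers took a prior count of 2. Replicates of a group differed by more than sampling noise in every pair. Each library was counted as 1 mouse because the titles call the replicates biological. The procedure was tested on simulated data with known changes. Of the simulated 1.5-fold changes it called 35.4% in Model against Con, 27.3% in MAN@SKI II against Con and 32.8% in MAN@SKI II against Model. For 2-fold changes these shares were 71.6%, 72.7% and 75.8%. The changed genes were drawn at random from all levels of expression. The simulated data gave 137 calls in Model against Con and 129 in MAN@SKI II against Con, where the real data gave 1340 and 1427. The shares for the 42 genes may therefore be different. A gene that was not called may still differ. Values of some genes outside the 42 are not reported here.

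Alternatives were RLE factors, no factors, no filter, at least 1 CPM in 3 libraries, DESeq2 1.42.0, limma-voom (limma 3.58.1), the 6 compared libraries alone, the replicate number as a block, the choroid plexus markers as a covariate and each library left out in turn; leaving out overlapping genes was added after seeing the data. Near-identical copies were sought with BLAST 2.17.0 against GENCODE M21 transcripts (GRCm38) matched by gene ID, at 97% identity over at least 150 bases. The setting without overlapping genes did not drop every gene that shares bases with another. It dropped those whose overlapping neighbour or near-identical copy held at least 5% of their counts. Promoter windows are RefSeq's on GRCm38.p6, another build than that of the counts. Figures were drawn in Python 3.11.15.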

Additional observations from a re-analysis of the deposited data

How the results depend on the processing

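In Model against Con, 16 of the 42 genes were called; the count was 14 to 20 with RLE factors, no factors, no filter, the stricter filter, DESeq2, limma-voom, the 6 compared libraries and without overlapping genes, 9 with the replicate block, 1 with the choroid plexus covariate, and 7 to 20 when 1 library was left out. In MAN@SKI II against Con, 21 were called; the count was 15 to 24 under the same settings, 14 with the block, 1 with the covariate and 12 to 20 when 1 library was left out. In MAN@SKI II against Model it was 0 throughout. Without overlapping genes, calls were counted among the genes that were kept and not among all 42, so a lower count there is not a loss of calls. The labels state no pairing of samples by replicate number. Correlations of same-numbered libraries, taken on log2 CPM after each gene's group mean was subtracted, were -0.0639 to 0.0525. With 3 libraries per group these cannot show whether same-numbered libraries share a batch, so the meaning of the block is not known.

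The covariate turned the sign of 13 of the 42 genes in Model against Con, 11 in MAN@SKI II against Con and 1 in MAN@SKI II against Model. Among the genes followed throughout, signs turned for these values. With the covariate, Model against Con gave -0.056 for Pdgfra, 0.25 for Olig2 and 0.073 for Enpp6, and MAN@SKI II against Con gave -0.069 for Pdgfra, 0.019 for Sox10 and 0.26 for Gpr17. Pdgfra in MAN@SKI II against Con was also -0.022 without factors, -0.00677 without the filter, -0.00101 with the stricter filter and -0.00107 with limma-voom. When 1 library was left out, Pdgfra ran from -0.014 to 0.049 in Model against Con, -0.033 to 0.030 in MAN@SKI II against Con and -0.043 to 0.012 in MAN@SKI II against Model, and Gpr17 from -0.065 to 0.26 in Model against Con. The cause was not tested. The median over all genes moved by less than 0.1 on the log2 scale in each setting. Low counts limit Bmp4, Nkx2-2 and Tcf7l2.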

Other observations

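Qdpr, the gene of dihydropteridine reductase, differed widely within both BTBR groups, at 142, 63.7 and 161 CPM in the MAN@SKI II mice and 88.3, 167 and 85.8 CPM in the Model mice, against 179, 146 and 173 CPM in the Con mice. Its standard error on the log2 scale was 0.40 in each comparison, against 0.07 for Mobp.

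Model 2 stood above Model 1 and Model 3 in the sum of the newly formed oligodendrocyte genes, at 299 CPM in Model 2, 209 CPM in Model 1 and 229 CPM in Model 3. In the same 3 libraries the progenitor genes summed to 87.9, 88.6 and 93.1 CPM. Model 2 was also highest of the 3 for the lineage-wide genes, at 201 CPM against 173 and 172 CPM. The same held for the myelinating genes, at 3584 CPM against 3126 and 3187 CPM. Its choroid plexus markers summed to 308 CPM, against 44.1 and 45.0 CPM.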
